A study of Mus musculus with 6 samples.

Results

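Lyve1 and 5 further genes used as markers of lymphatic endothelium were followed in small intestine tumors after enzymatic removal of hyaluronan. The 6 members (Lyve1, Prox1, Mmrn1, Reln, Pdpn and Stab1) were chosen by symbol, and each matched 1 of the 21878 gene rows of the table. The tumors came from mice of genotype Prkcif/fPrkczf/f;Villin-Cre, in which a recombinase driven in intestinal epithelium targets both atypical protein kinase C genes. The deletions are therefore not directed at lymphatic or other stromal cells. In the PEGPH20 group (replicates 4, 5 and 6) mice aged 11 weeks received PEGPH20, a form of human hyaluronidase coupled to polyethylene glycol, at 0.0375 mg/kg with 2 doses per week for 3 weeks. The vehicle group (replicates 1, 2 and 3) carried the same genotype and received vehicle on that schedule, and all 6 tumors were profiled at 14 weeks of age. No group without the gene deletions was analysed here.

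Lymphatic vessels drain fluid, immune cells and, in the small intestine, absorbed fat, through blind-ended capillaries that include the lacteals of the villi. Lymphatic endothelial cells are specified by the transcription factor PROX1 and grow in response to the ligands VEGF-C and VEGF-D acting on the receptor VEGFR-3, the product of Flt4. They carry LYVE1, a membrane receptor that binds hyaluronan, the polysaccharide that PEGPH20 degrades. None of the members is restricted to lymphatic endothelium. LYVE1 and STAB1 are also found on some tissue macrophages, PDPN on fibroblasts and mesothelium, PROX1 in enteroendocrine cells and some intestinal tumor cells, and MMRN1 in platelets.

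The libraries held 2075588 to 2832876 reads, as recovered from the steps of the values, so that 1 read was worth 0.353 to 0.482 CPM (reads scaled to a library total of 1000000) and a count of 0 allowed up to 1.06 to 1.45 CPM (3 reads). All 10 epithelial markers were present, with summed levels of 8738 to 9431 CPM in PEGPH20 and 8019 to 9106 CPM in vehicle tumors. PEGPH20 replicate 5 stood apart, with correlations across 11389 genes of 0.844 to 0.907 with the other libraries, against 0.945 to 0.979 among the other 5, and mitochondrial mRNA at 5.15% of its reads, against 3.34% to 3.99% in the others. Values without it are given beside the results that it moves most. Of the targeted genes, Prkci was at 22.8 to 37.1 CPM in PEGPH20 and 15.9 to 28.3 CPM in vehicle tumors, and Prkcz at 7.28 to 16.7 CPM in PEGPH20 and 3.06 to 8.67 CPM in vehicle tumors. Both groups carry the deletions and a 3' tag need not fall within a deleted stretch, so these values check no label.

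Lyve1 averaged 46.3% of the vehicle mean in PEGPH20 tumors. Its level was 22.9, 26.7 and 19.6 CPM in PEGPH20 replicates 4, 5 and 6, against 49.6, 48.9 and 50.8 CPM in vehicle replicates 1, 2 and 3. Every PEGPH20 tumor lay below every vehicle tumor, and the 3 vehicle tumors were close to one another. The means were 23.1 ± 3.55 CPM in PEGPH20 and 49.8 ± 0.962 CPM in vehicle tumors (SD, n = 3 each), a log2 difference of -1.09 on the log2(CPM + 1) scale (SE 0.16, 95% interval -1.47 to -0.71). By limma this difference ranked 26 of 11389 genes by p-value and missed the threshold of 0.05 after Benjamini-Hochberg adjustment (unadjusted p = 0.000198, adjusted p = 0.0841). Without PEGPH20 replicate 5 it passed (log2 difference -1.19, adjusted p = 0.00382 by limma), as it did with DESeq2 on whole reads recovered from the CPM (-0.996, 0.0189), but not with edgeR on the same reads (-1.01, 0.0972).

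The values of Lyve1 rest on 65, 64 and 43 reads in the PEGPH20 and 103, 128 and 133 reads in the vehicle libraries. Counting alone gives an SD of 4.33 to 4.89 CPM in each vehicle library, several times the SD of 0.962 CPM seen among them, so the closeness of the vehicle values is not a measure of their precision. Leaving out a vehicle library, which leaves 2, gave adjusted p-values of 0.387 to 0.421 by limma with log2 differences of -1.10 to -1.07. In whole tissue, fewer cells that express a gene and less of its RNA per cell cannot be told apart.

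**Figure D1:**
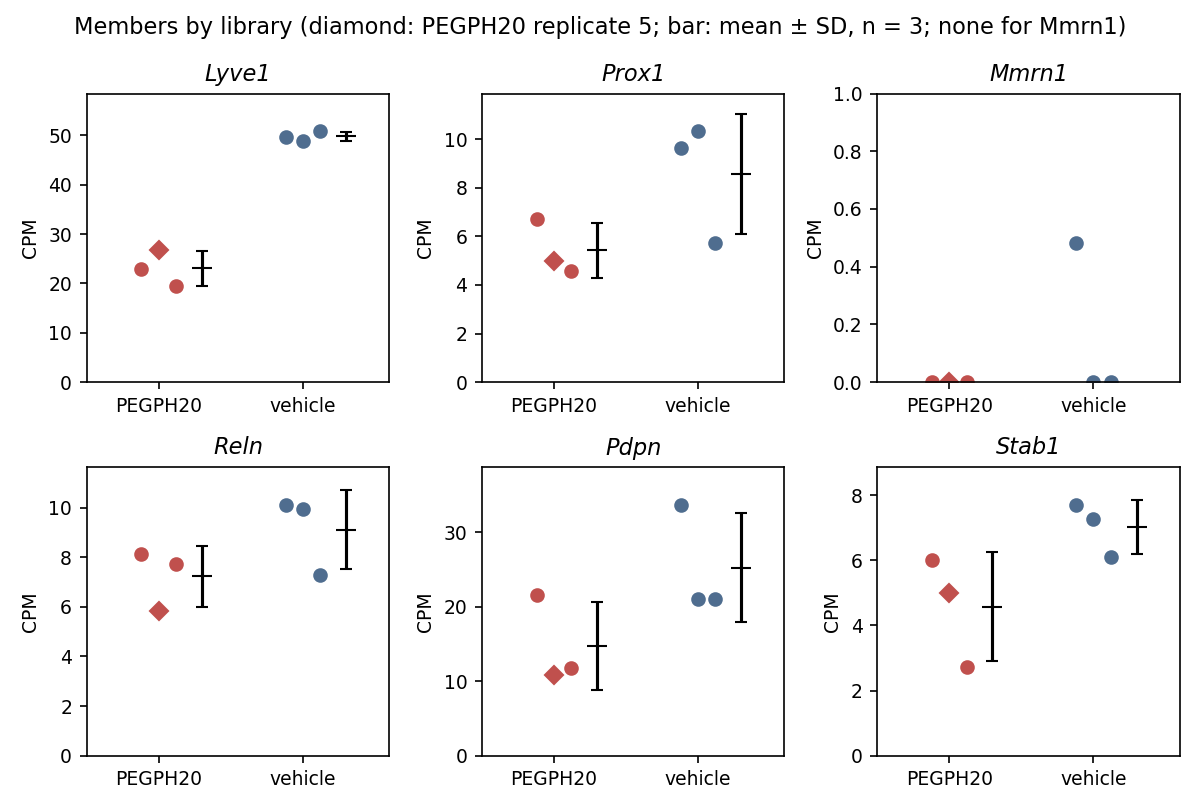
Level in CPM (vertical axes, linear, from 0) of the 6 members in each PEGPH20 tumor (red, left) and vehicle tumor (blue, right), with the group mean ± SD (n = 3 each) beside the points except for Mmrn1, which had 1 read in all. The groups do not overlap for Lyve1 (19.6 to 26.7 CPM in PEGPH20 and 48.9 to 50.8 CPM in vehicle tumors) and Stab1 (2.73 to 6.001 CPM in PEGPH20 and 6.12 to 7.71 CPM in vehicle tumors), and they overlap for Prox1, Reln and Pdpn.

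Prox1, the transcription factor that sets lymphatic identity, had few reads. Its level was 6.71, 5.001 and 4.55 CPM in PEGPH20 replicates 4, 5 and 6, against 9.64, 10.3 and 5.73 CPM in vehicle replicates 1, 2 and 3. Vehicle replicate 3 fell within the PEGPH20 range. The log2 difference was -0.55 (SE 0.29, 95% interval -1.23 to 0.12) and did not pass the limma test (adjusted p = 0.343). Enteroendocrine markers summed to 114 to 293 CPM in PEGPH20 and 95.9 to 137 CPM in vehicle tumors, with PEGPH20 replicate 5 the highest. Of 14 listed enteroendocrine markers 7 were tested, 3 lower and 4 higher, with a median log2 difference of 0.35 (0.077 without replicate 5). The 7 below the filter had 212 reads in PEGPH20 and 83 reads in vehicle libraries, with 6 higher and 1 lower in mean CPM. Of these PEGPH20 reads 74 were of Gip, 60 of them in replicate 5. Stem cell and Wnt target genes summed to 219 to 408 CPM in PEGPH20 and 279 to 343 CPM in vehicle tumors, with 7 of 11 tested genes lower and a median of -0.12. Without replicate 5 this turned, with 4 of 11 lower and a median of 0.14. Sox9 was the largest part of these sums, at 78.8 to 279 CPM in PEGPH20 and 156 to 224 CPM in vehicle tumors. At an unadjusted limma p under 0.05, 0 of the 11 were lower, beside 11.5% of all genes, and 2 were higher. These 2 were Axin2 and Olfm4, named after their values were seen (log2 differences 0.89 and 1.58, and 0.68 and 0.89 without replicate 5). The Wnt target Notum had 2 reads in PEGPH20 and 0 reads in vehicle libraries. The part of either cell type in the Prox1 values was not tested. Prox1 shares 133 exonic bases with the antisense gene Prox1os, and whether the counting used strand is not given in the sources used here.

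Pdpn, which encodes the membrane glycoprotein podoplanin, was lower on average with wide spread. Its level was 21.5, 10.8 and 11.8 CPM in PEGPH20 replicates 4, 5 and 6, against 33.7, 21.0 and 21.0 CPM in vehicle replicates 1, 2 and 3. PEGPH20 replicate 4 lay just above the 2 lower vehicle tumors, so the groups overlapped. The means were 14.7 ± 5.91 CPM in PEGPH20 and 25.3 ± 7.33 CPM in vehicle tumors (SD, n = 3 each), with a log2 difference of -0.77 (SE 0.31, 95% interval -1.48 to -0.050, limma adjusted p = 0.252). Fibroblasts also make podoplanin. Their markers summed to 784 to 1863 CPM in PEGPH20 and 3278 to 3411 CPM in vehicle tumors, with 12 of 13 tested markers lower, a median log2 difference of -1.23 and no marker at 0 throughout a group. With limma 0 fibroblast markers passed, beside 0.0527% of all genes. At an unadjusted p under 0.05, 9 were lower, beside 11.5% of all genes, and DESeq2 called 6 lower, beside 1.31%, and edgeR 0. Without replicate 5, 11 of 13 were lower, the median was -0.83 and 7 passed as lower, beside 2.03% of all genes. Of the tested fibroblast markers Fbln1, a fibulin of the matrix, had the opposite sign (log2 difference 0.87, limma adjusted p = 0.408). The 2 below the filter were Fap and Pi16. Fap was higher, at 2.08 to 2.73 CPM in PEGPH20 and 0.765 to 1.93 CPM in vehicle tumors, on 17 and 10 reads. Pi16 had 1 read in PEGPH20 and 3 reads in vehicle libraries. Of the mesothelium markers 3 were tested and 3 were lower (median -0.82), against 2 of 3 without replicate 5 (median -0.32), with sums of 681 to 1971 CPM in PEGPH20 and 2203 to 2736 CPM in vehicle tumors that are mostly Krt19, a keratin of epithelium as well. Mesothelial Upk3b had 1 read in each group. The part of fibroblasts and mesothelium in the Pdpn values was not tested.

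Stab1 encodes stabilin-1, a scavenger receptor of lymphatic and sinusoidal endothelium and of macrophages. Its level was 6.001, 5.001 and 2.73 CPM in PEGPH20 replicates 4, 5 and 6, against 7.71, 7.26 and 6.12 CPM in vehicle replicates 1, 2 and 3. The groups did not overlap, although the nearest values of the groups were closer than 1 read. The log2 difference was -0.57 (SE 0.30, 95% interval -1.27 to 0.13, limma adjusted p = 0.350), on 35 reads in PEGPH20 and 51 in vehicle libraries. Stab1 shares 112 exonic bases with Nt5dc2 on the opposite strand, which had 5 reads in PEGPH20 and 20 reads in vehicle libraries.

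Reln encodes reelin, a large secreted glycoprotein that lymphatic endothelial cells release. Its level was 8.12, 5.83 and 7.74 CPM in PEGPH20 replicates 4, 5 and 6, against 10.1, 9.94 and 7.26 CPM in vehicle replicates 1, 2 and 3. The groups overlapped at vehicle replicate 3. Of the 5 tested members Reln had the difference nearest 0, at -0.29 (SE 0.24, 95% interval -0.86 to 0.27, limma adjusted p = 0.530). Neurons make reelin as well. Enteric neuron and glia markers summed to 26.3 to 52.6 CPM in PEGPH20 and 49.7 to 63.1 CPM in vehicle tumors, and their part was not tested. Of 7 tested markers 6 were lower (median -0.29), and 5 without replicate 5 (median -0.26). Smooth muscle markers had 8 of 10 lower (median -0.40, and -0.31 without replicate 5), with sums of 982 to 1218 CPM in PEGPH20 and 1054 to 1254 CPM in vehicle tumors. Of all tested genes 59.8% were lower.

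Mmrn1 encodes multimerin-1, a glycoprotein stored in platelets and endothelial cells and used as a marker of lymphatic capillaries. It was not detected at this depth in PEGPH20 tumors and had 1 read in vehicle tumors, in replicate 1, so it could not be tested. Ccl21a, which encodes the chemokine by which lymphatic endothelium draws in dendritic cells, likewise had 0 reads in PEGPH20 and 1 read in vehicle tumors. The rows of both lymphatic markers were thus at or near 0, which does not show that the transcripts were absent. How reads that match several genes were counted is not given in the sources used here. Prox1, Lyve1, Pdpn and Flt4 had reads in each of the 6 libraries. Of 7 platelet markers 2 were tested and 2 were lower (median -0.71, and -0.47 without replicate 5). The markers summed to 32.9 to 48.7 CPM in PEGPH20 and 62.7 to 76.1 CPM in vehicle tumors. These sums are mostly 1 gene, Gp1bb, at 26.3 to 36.0 CPM in PEGPH20 and 46.3 to 57.3 CPM in vehicle tumors. The platelet genes Gp9, Treml1 and Gp6 had at most 3 reads each over all libraries.

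Promoters were looked up in RefSeq on GRCm38.p6, as 300 bases from 250 before to 50 after the start of transcription, and 5 of the 6 members matched. Lyve1 has no entry there. Those of Stab1 and Pdpn are shown, the tested members next to Lyve1 in size of difference, with matches on either strand to 5 short motifs in capitals. The motifs stand for factor families with known roles in endothelium or lymphatic vessels of mice. The ETS motif searched was AGGAAG, held by 35.4% of 32851 promoters of this length. The NFAT motif was GGAAAA, held by 23.4%, and it shares the letters GGAA with the ETS motif, although no matches overlap here. The COUP-TF motif was AGGTCA, held by 16.3%. The GATA motif, AGATAA, is held by 11.2% of promoters and the SOX motif, AACAAT, by 10.7%, and neither is in the 2 promoters shown. Stab1 lies at chr14:31168592-31168891 on the minus strand and holds the NFAT motif from base 18 and the ETS motif from base 135, counted from 1 at the 5' end. Pdpn lies at chr4:143299515-143299814 on the minus strand and holds the NFAT motif on the other strand from base 159 and the COUP-TF motif from base 217.
Stab1: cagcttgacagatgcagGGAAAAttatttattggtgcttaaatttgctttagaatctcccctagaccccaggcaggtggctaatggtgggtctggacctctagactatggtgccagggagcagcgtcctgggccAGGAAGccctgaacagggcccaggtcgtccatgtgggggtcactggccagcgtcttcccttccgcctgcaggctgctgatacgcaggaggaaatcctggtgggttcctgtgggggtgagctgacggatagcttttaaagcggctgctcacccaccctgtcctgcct
Pdpn: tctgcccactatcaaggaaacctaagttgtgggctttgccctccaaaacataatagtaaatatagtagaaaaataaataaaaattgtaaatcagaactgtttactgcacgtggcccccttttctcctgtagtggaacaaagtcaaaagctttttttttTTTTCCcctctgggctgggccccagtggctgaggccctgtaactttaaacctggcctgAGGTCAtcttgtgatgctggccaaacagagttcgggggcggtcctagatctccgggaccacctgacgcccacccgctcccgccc
A match is a run of letters and shows no binding.

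Of the 6 members 5 could be tested, and all 5 had lower means in PEGPH20 tumors, where 59.8% of the 11389 tested genes had a log2 difference below 0. Their median difference was -0.57, against -0.094 over all tested genes. Of these 5, 4 were above the filter level of 3.99 CPM in all 6 libraries, and Stab1 in 2 PEGPH20 and 3 vehicle libraries. With limma 0 members passed the threshold in the lower direction, beside 0.0527% of all tested genes. At an unadjusted p under 0.05 there were 2 members (Lyve1 and Pdpn), beside 11.5% of genes. The groups did not overlap for 2 members (Lyve1 and Stab1), beside 17.6% of genes. Without PEGPH20 replicate 5, limma called 1 member, Lyve1, beside 2.03% of genes, and the median over the 5 members was -0.59. The other members were at -0.51 (Prox1), -0.59 (Pdpn), -0.65 (Stab1) and -0.17 (Reln) without that replicate, with limma adjusted p-values of 0.308 to 0.793. DESeq2 also called Lyve1 alone among them, beside 1.31% of genes. edgeR called 0, beside 0.0527% of genes, and without replicate 5 it called Lyve1, beside 2.18%.

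The members lie on 6 chromosomes of GRCm38, by GENCODE release M21. Lyve1 (ENSMUSG00000030787) spans chromosome 7 from 110850607 to 110863239 on the minus strand. Prox1 (ENSMUSG00000010175) spans chromosome 1 from 190118035 to 190170714 and Reln (ENSMUSG00000042453) chromosome 5 from 21884454 to 22344702, both on the minus strand. Pdpn (ENSMUSG00000028583) spans chromosome 4 from 143267431 to 143299564 and Stab1 (ENSMUSG00000042286) chromosome 14 from 31139013 to 31168641, also on the minus strand. Mmrn1 (ENSMUSG00000054641) is on the plus strand of chromosome 6 from 60924976 to 60989378. No other gene overlaps Lyve1, Pdpn or Mmrn1 in that annotation.

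A list of 30 other genes of lymphatic growth, identity and trafficking was read from the same fit. They were not chosen for being restricted to lymphatic endothelium, and the part of other cells in their values was not tested. Of these 17 were tested and 17 had lower means in PEGPH20 tumors, with a median log2 difference of -0.65 and a range of -1.58 to -0.092. With limma 0 passed the threshold in either direction and 8 were lower at an unadjusted p under 0.05, beside 11.5% of all genes. Without PEGPH20 replicate 5 the median was -0.43, 15 were lower, and limma called 2 (Ackr4 and Angpt1), beside 2.03% of all genes. With all 6 libraries DESeq2 called 1 (Ackr4), beside 1.31% of all genes, and edgeR 0. Among the 17, Flt4, Ackr4 and Angpt1 were above the filter level in vehicle libraries only, so their difference is partly built into their being tested. The 9 above that level in all 6 libraries were all lower, beside 57.9% of the 9537 tested genes above it in all 6. The 13 genes below the filter had 115 reads in PEGPH20 and 133 reads in vehicle libraries, with 5 higher and 8 lower in mean CPM. Sox18 and Adamts3, a transcription factor and a protease of lymphatic development, had 2 reads each in PEGPH20 and 0 reads in vehicle libraries.

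The ligands of lymphatic growth were too sparse to compare. Vegfc, the main growth factor of lymphatic vessels, was at 2.12, 0.834 and 2.73 CPM in PEGPH20 replicates 4, 5 and 6, against 0.964, 2.29 and 4.59 CPM in vehicle replicates 1, 2 and 3. The groups overlapped, and the values rest on 14 reads in PEGPH20 and 20 reads in vehicle libraries. Vegfd had 7 reads in PEGPH20 and 11 reads in vehicle libraries.

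The VEGF-C receptor gene Flt4 was at 3.18, 1.67 and 2.73 CPM in PEGPH20 replicates 4, 5 and 6, against 7.23, 7.26 and 6.88 CPM in vehicle replicates 1, 2 and 3. The groups did not overlap, with a log2 difference of -1.23 (SE 0.27) that missed the limma threshold with all libraries (adjusted p = 0.143) and without replicate 5 (-1.04, 0.0883). Flt4 was above the filter level in vehicle libraries only. Its co-receptor gene Nrp2 was at 16.7 ± 3.78 CPM in PEGPH20 and 23.3 ± 1.65 CPM in vehicle tumors (SD, n = 3 each; log2 difference -0.48, limma adjusted p = 0.283, and -0.31 without replicate 5).

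Ackr4 encodes an atypical receptor that takes up the chemokines CCL19 and CCL21. Its level was 3.88, 2.92 and 3.64 CPM in PEGPH20 replicates 4, 5 and 6, against 12.04, 14.5 and 10.7 CPM in vehicle replicates 1, 2 and 3. The groups were far apart, on 26 reads in PEGPH20 and 91 reads in vehicle libraries. The log2 difference was -1.58 (SE 0.24, limma adjusted p = 0.0841), and -1.49 (adjusted p = 0.0171) without replicate 5. Angpt1, which encodes the ligand angiopoietin-1 of the receptor TIE2, was at 1.76, 3.75 and 2.73 CPM in PEGPH20 replicates 4, 5 and 6, against 8.19, 8.41 and 7.26 CPM in vehicle replicates 1, 2 and 3. Here replicate 5 was the highest of the PEGPH20 tumors, as it was for Lyve1. The log2 difference of Angpt1 was -1.29 (SE 0.28, limma adjusted p = 0.143), and -1.48 (adjusted p = 0.0333) without replicate 5. Ackr4 and Angpt1 were above the filter level in vehicle libraries only, so these differences are partly built into their being tested.

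**Figure D2:**
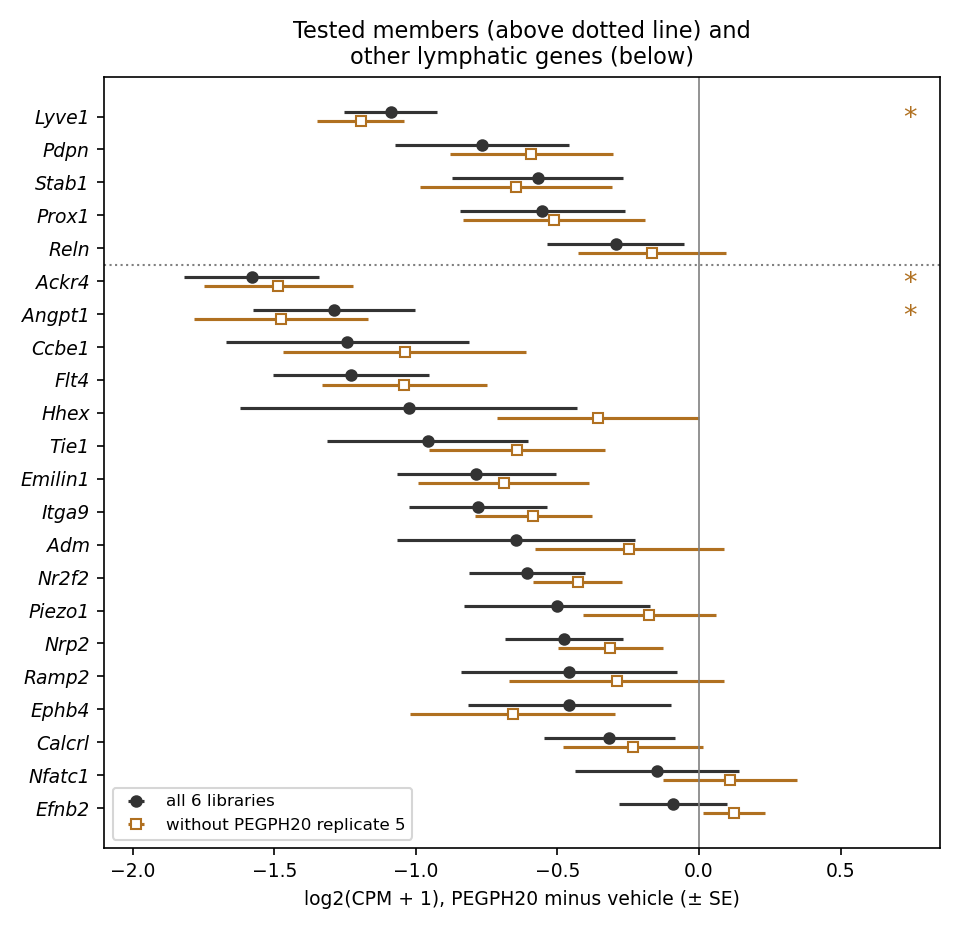
Difference in log2(CPM + 1), PEGPH20 minus vehicle, ± SE (horizontal axis) for the 5 tested members and 17 other tested lymphatic genes, with all 6 libraries (filled circles) and without PEGPH20 replicate 5 (open squares). All filled circles lie below 0. Stars mark the genes past an adjusted p of 0.05 by limma without replicate 5, which are Lyve1, Ackr4 and Angpt1. Flt4, Ackr4 and Angpt1 were above the filter level in vehicle libraries only, so their differences are partly built into their being tested.

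Markers of endothelium in general were lower as well. Of 25 listed markers 21 were tested and 21 had lower means in PEGPH20 tumors (median -0.82), with sums of 210 to 361 CPM in PEGPH20 and 534 to 586 CPM in vehicle tumors and no marker at 0 throughout a group. With limma 0 passed and 15 were lower at an unadjusted p under 0.05, beside 11.5% of all genes. DESeq2 called 3, beside 1.31% of all genes, and edgeR 0. Without replicate 5 the median was -0.54, 20 of 21 were lower and limma called 4, beside 2.03% of all genes. Vwf and Tal1 were above the filter level in vehicle libraries only, so their difference is partly built into their being tested. Those with the smallest p-values were Ptprb, a receptor phosphatase (43.8 ± 9.997 CPM in PEGPH20 and 103.9 ± 3.09 CPM in vehicle tumors, SD, n = 3 each; log2 difference -1.25, limma adjusted p = 0.0841), Vwf, the von Willebrand factor (-1.66, 0.113), and Kdr, the main VEGF-A receptor (-0.82, 0.135). Without replicate 5 these were at -1.06, -1.47 and -0.71, with limma adjusted p-values of 0.00192, 0.0309 and 0.0349.

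To set Lyve1 against endothelium, the mean log2(CPM + 1) of the 21 tested endothelial markers was subtracted in each tumor. The relative level was 0.82, 1.86 and 0.87 in PEGPH20 replicates 4, 5 and 6, against 1.24, 1.41 and 1.49 in vehicle replicates 1, 2 and 3. Replicates 4 and 6 were below the vehicle range and replicate 5 above it. The difference was -0.20 and the groups overlapped (two-sided exact permutation test, p = 0.6, where 3 against 3 tumors cannot go below 0.1). The subtracted mean includes Vwf and Tal1, which were above the filter level in vehicle libraries only. Part of its fall in PEGPH20 tumors is therefore built in, which makes the relative difference smaller in size. With all 25 listed markers the difference was -0.28 (two-sided exact permutation test, p = 0.4). With the 21 tested markers and without replicate 5 it was -0.53, and the groups did not overlap (two-sided exact permutation test, p = 0.1, the smallest possible). PEGPH20 replicate 5 thus had the lowest level of the endothelial list (-1.35 relative to the vehicle mean, with -0.52 and -0.80 in replicates 4 and 6) and the highest level of Lyve1 among the PEGPH20 tumors (-0.88, with -1.08 and -1.30). Relative to the 13 tested fibroblast markers, Lyve1 was at -1.45, -0.28 and -1.46 in PEGPH20 replicates 4, 5 and 6, against -1.11, -1.02 and -0.77 in vehicle replicates 1, 2 and 3, again with replicate 5 above and the other PEGPH20 tumors below the vehicle range.

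The macrophage list gave another picture. Of 18 listed macrophage markers 16 had a row and 12 were tested, of which 6 were lower and 6 higher in PEGPH20 tumors (median 0.0011). With limma 0 passed the threshold, beside 0.0527% of all genes called lower. At an unadjusted p under 0.05, 2 were lower, beside 11.5% of all genes. DESeq2 called 0, beside 1.31%, and edgeR 0, beside 0.0527%. The markers summed to 345 to 385 CPM in PEGPH20 and 362 to 382 CPM in vehicle tumors. Mertk, a receptor for the uptake of dying cells, made up much of the sum of PEGPH20 replicate 5, at 136 CPM, against 35.9 to 62.2 CPM in the other tumors of both groups. Lyve1 relative to this list was -0.034, 0.29 and -0.37 in PEGPH20 replicates 4, 5 and 6, against 1.07, 0.90 and 1.02 in vehicle replicates 1, 2 and 3. The groups did not overlap, with a difference of -1.03 (two-sided exact permutation test, p = 0.1, the smallest possible). The markers with the smallest p-values were Fcgr3, an Fc receptor (20.0 ± 1.97 CPM in PEGPH20 and 28.4 ± 1.57 CPM in vehicle tumors, SD, n = 3 each; limma adjusted p = 0.199), and the complement genes C1qa and C1qb (log2 differences -0.43 and -0.33, limma adjusted p = 0.269 and 0.285). Of the 6 with the opposite sign, C1qc, the partner of these complement genes, was at 0.22, Adgre1, which encodes the F4/80 antigen, at 0.45 and Mertk at 0.51 (-0.030 without replicate 5), with limma adjusted p = 0.653, 0.40 and 0.556.

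Some macrophages that carry LYVE1 also express Cd163, a haemoglobin scavenger receptor, and 4 genes of such cells on the list (Cd163, Folr2, Timd4 and F13a1) were below the filter. Cd163 was at 0.353, 1.67 and 0.455 CPM in PEGPH20 replicates 4, 5 and 6, against 3.85, 4.21 and 5.73 CPM in vehicle replicates 1, 2 and 3. It was lower in every PEGPH20 tumor than in every vehicle tumor, on 6 reads in PEGPH20 and 34 reads in vehicle libraries, and is named after its values were seen. F13a1, a coagulation factor subunit, had 15 reads in PEGPH20 and 27 reads in vehicle libraries, and Timd4 and Folr2 had 4 and 1 reads in each group. Mrc1, the mannose receptor, was at 30.7 ± 13.7 CPM in PEGPH20 and 45.9 ± 7.62 CPM in vehicle tumors (SD, n = 3 each; log2 difference -0.66, limma adjusted p = 0.339, and -0.26 without replicate 5). The part of these cells in the Lyve1 and Stab1 values was not tested.

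**Figure D3:**
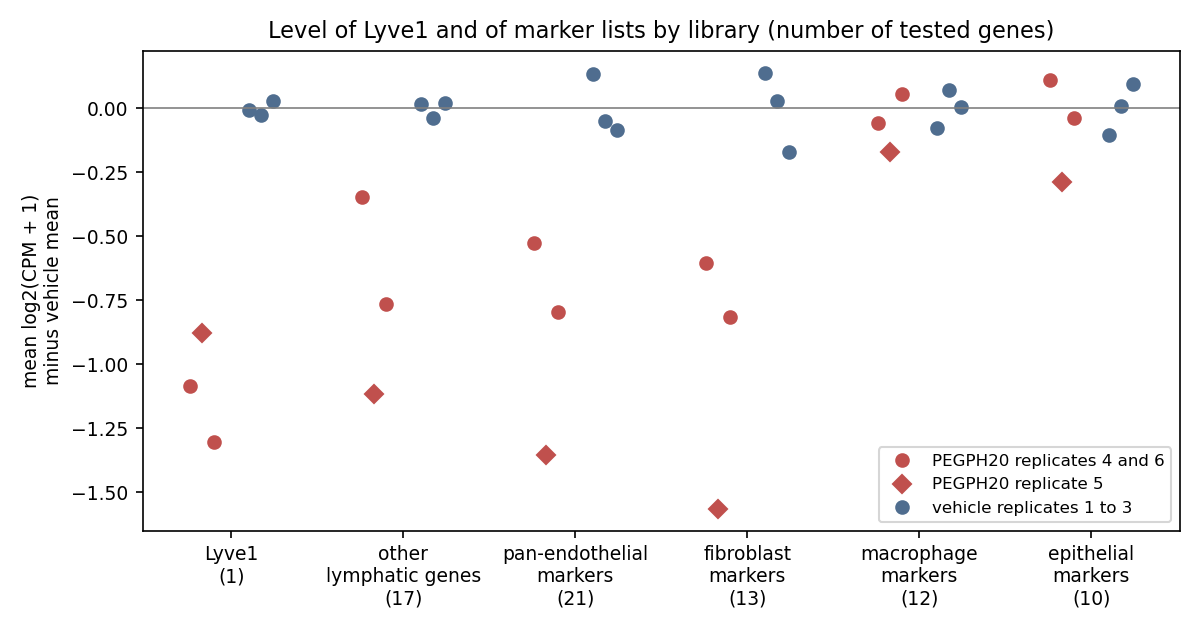
Level of Lyve1 and of 5 gene lists in each tumor (vertical axis, mean log2(CPM + 1) of the tested genes minus the vehicle mean), with PEGPH20 tumors in red on the left and vehicle tumors in blue on the right of each pair. PEGPH20 replicate 5 (diamond) is the lowest tumor for all 5 lists. It is at -1.11, -1.35 and -1.56 for the lymphatic, endothelial and fibroblast lists, and at -0.17 and -0.29 for the macrophage and epithelial lists. For Lyve1 it is the highest PEGPH20 tumor (-0.88).

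Of 6 hyaluronan receptor genes, among them Lyve1 and Stab1, 4 were tested, 3 lower and 1 higher (Hmmr), with a median of -0.65 (-0.41 without replicate 5). Cd44, the most widely expressed of these receptors, was at 184 ± 101 CPM in PEGPH20 and 272 ± 68.6 CPM in vehicle tumors (SD, n = 3 each), with overlapping groups and a log2 difference of -0.73 (limma adjusted p = 0.406) that was -0.18 without replicate 5. Layn had 9 reads in PEGPH20 and 28 reads in vehicle libraries, and Stab2 had 2 reads in PEGPH20 and 0 reads in vehicle libraries.

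The genes whose profile over the 6 libraries was closest to that of Lyve1 were Per1, Accs, Pik3ip1, Dnm3 and Adam15. Closeness was the root mean square difference of mean-centred log2(CPM + 1), which was 0.099 for Per1, 0.12 for Accs, 0.13 for Pik3ip1 and 0.15 for Dnm3 and Adam15, against a median of 0.60 over 11369 genes. Stab1 (0.34), Prox1 (0.40), Pdpn (0.43) and Reln (0.49) were farther from Lyve1. Per1, a core gene of the circadian clock, was at 6.35, 7.50 and 5.01 CPM in PEGPH20 replicates 4, 5 and 6, against 17.3, 14.5 and 16.1 CPM in vehicle replicates 1, 2 and 3. Like Lyve1 it was highest in replicate 5 among the PEGPH20 tumors and did not overlap between groups (log2 difference -1.23). Adam15, a membrane metalloprotease, was at 15.5, 17.1 and 15.9 CPM in PEGPH20 replicates 4, 5 and 6, against 30.8, 28.3 and 33.6 CPM in vehicle replicates 1, 2 and 3 (log2 difference -0.89). The log2 differences were -0.95 for Accs, -0.96 for Pik3ip1, an inhibitor of phosphoinositide 3-kinase, and -1.30 for Dnm3, a dynamin. These differences are a description with no test, since the genes were chosen for a profile like that of Lyve1. Accs and Dnm3 were below the filter level in every PEGPH20 library and entered through the vehicle libraries. The profiles share 6 libraries and are mostly the difference between the groups, so closeness says little of single tumors.

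**Figure D4:**
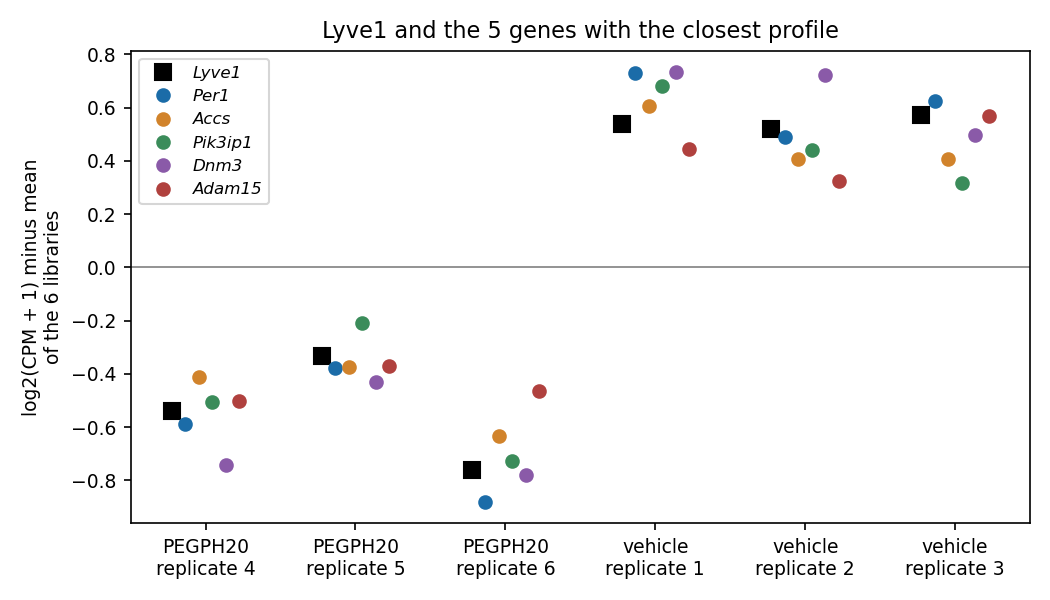
Log2(CPM + 1) minus the mean of the 6 libraries (vertical axis) for Lyve1 (black squares) and the 5 genes with the closest profile (circles), by library, PEGPH20 on the left. All 6 genes lie below 0 in the 3 PEGPH20 tumors and above 0 in the 3 vehicle tumors.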

How the data were processed

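RNA from 6 tumors was made into 3' mRNA libraries (QuantSeq FWD kit with optional molecular identifiers, 200 ng of total RNA) and read from 1 end over 75 nt, per the labels' protocols. The authors deposited a signal in CPM per gene, read from the values, whose gene rows sum to 1000000 per library. The build is GRCm38, per the submitters' processing notes, with the aligner, the counter and its use of strand or identifiers not given in the sources used here. A row of totals, at 1000000 in each library, was left out as it is no gene. Whole reads and library totals were recovered from the smallest step of each column: 100% of values above 0 came out whole within 1e-06 of a read. Of 21878 identifiers 21786 matched GENCODE M21. Floors and counting SDs cover counting error only, and the 95% intervals are limma's, from the spread between tumors.

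Groups follow the treatment label. limma 3.58.1 (eBayes with trend) took log2(CPM + 1) of the 11389 genes kept by filterByExpr (minimum count 10) on the recovered reads, with Benjamini-Hochberg adjustment over all of them, as the deposited values are normalized. Differences on this scale understate the change of low genes. edgeR 4.0.16, DESeq2 1.42.0, TMM and RLE scaling, pseudocounts of 0.1 and 5, other filters and leaving out each library were alternatives (R 4.3.3, Python 3.11.15). Members and gene lists were chosen with earlier results of these data known. The lists are other lymphatic genes, hyaluronan receptors and markers of endothelium, macrophages, fibroblasts, smooth muscle, mesothelium, enteroendocrine cells, stem cells and Wnt targets, platelets, enteric neurons and glia, and epithelium. Named genes are the members, the 3 of smallest p in the lymphatic, endothelial, macrophage and hyaluronan receptor lists, Flt4, Vegfc, Nrp2 and Cd44, and the 5 closest to Lyve1; others are named as low, sparse or chosen after their values were seen. No label says that tumors came from separate mice, and p-values then reflect only how these samples vary, which may be technical. None of 15 library pairs looked like a duplicate (chi-square per degree of freedom 2.42 to 35.8).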

Additional observations from a re-analysis of the deposited data

How the results depend on the processing

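The sign of the difference held for Lyve1, Prox1, Reln, Pdpn and Stab1 in each of 15 alternatives. Lyve1 ran from -1.20 to -0.97 with adjusted p from 0.00257 to 0.421, Pdpn from -1.06 to -0.54, Stab1 from -0.76 to -0.30, Prox1 from -0.79 to -0.37 and Reln from -0.43 to -0.17, and of these 5 genes only Lyve1 passed in any. Lyve1 passed with DESeq2 (-0.996, adjusted p = 0.0189), with edgeR without PEGPH20 replicate 5 (-1.20, 0.00257) and with limma without that replicate (leaving out 1 library gave -1.19 to -0.98). DESeq2 called 1 member, 1 other lymphatic gene and 3 endothelial markers lower, beside 1.31% of all genes. edgeR without replicate 5 called 1, 2 and 5, beside 2.18% of all genes. Leaving out 1 library gave 0 to 1, 0 to 2 and 0 to 4. The upper count was each time without PEGPH20 replicate 5, where limma called 2.03% of all genes lower. With no filter on low values 1 endothelial marker was called, beside 19 of 21878 genes called lower.

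Over all genes, 6 lower and 3 higher were called. TMM scaling gave 5 and 4 and moved the median of all genes from -0.094 to -0.0065. A pseudocount of 0.1 gave 3 lower, no filter gave 19 lower and 10 higher, DESeq2 gave 149 and 128, and edgeR without replicate 5 gave 248 and 173. Leaving out 1 library gave 0 to 231 lower and 1 to 108 higher, both upper counts without PEGPH20 replicate 5 and 0 lower without PEGPH20 replicate 6 or any vehicle replicate. The cause was not tested. Lyve1 relative to endothelium ran from -0.53 to -0.016 and relative to macrophages from -1.19 to -0.87 over 9 alternatives. Depth limits Prox1, Reln, Stab1 and Flt4, with 71 to 120 reads each over all libraries. No paired analysis was possible because the groups share no replicate number.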

Other observations

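Of 10 tested epithelial markers 6 were lower and 4 higher in PEGPH20 tumors (median log2 difference -0.11, and -0.0047 without replicate 5). The groups did not overlap for 2 lower markers, beside 17.6% of all genes, and for 2 higher markers. The lower ones were the keratins Krt18 and Krt8 (-1.30 and -0.69, and -0.50 and -0.31 without replicate 5). Among the higher ones, Muc13, a transmembrane mucin named after its values were seen, was at 1584, 2355 and 1396 CPM in PEGPH20 replicates 4, 5 and 6, against 662, 836 and 899.8 CPM in vehicle replicates 1, 2 and 3. Every PEGPH20 tumor was above every vehicle tumor. Its log2 difference was 1.13 (limma adjusted p = 0.135) with all libraries and 0.91 (0.00921) without PEGPH20 replicate 5. Msln, which encodes mesothelin and was chosen likewise, was at 11.3, 0 and 13.2 CPM in PEGPH20 replicates 4, 5 and 6, against 52.0, 28.3 and 52.0 CPM in vehicle replicates 1, 2 and 3. Its log2 difference was -2.96 (limma adjusted p = 0.185) with all libraries and -1.72 (0.00921) without replicate 5.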
